A study of Mus musculus with 18 samples.

Results

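The addition of 20 uM SB24011 to cGAMP was examined in wild-type RAW264.7, a transformed mouse cell line used as a model of macrophages, by comparing 3 libraries of cells given 20 uM cGAMP and 20 uM SB24011 with 3 libraries of cells given 20 uM cGAMP alone. These 6 of the 18 libraries of the study were chosen by their labelled treatment, and 14650 of the 45777 genes in the deposited table had enough reads to be tested. All cells were treated for 6 h in medium without serum, and mRNA was sequenced. The other groups, each of 3 libraries, received DMSO, 20 uM SB24011 alone, 20 uM cGAMP plus 10 uM SB24011, or 20 uM cGAMP plus the analog 7a at 20 uM. According to the series title SB24011 blocks binding between STING and TRIM29, and 7a is labelled as the negative analog. All libraries come from 1 cell line, and the labels do not say whether the 3 libraries of a group came from separate cultures, so p-values measure only the spread between libraries.

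cGAMP is the cyclic dinucleotide made by the DNA sensor cGAS. It binds the adaptor STING in the endoplasmic reticulum, which recruits the kinase TBK1 and, through the transcription factors IRF3 and NF-kB, turns on type I interferon and inflammatory cytokine genes. The integrated stress response, a separate route, starts with phosphorylation of the translation factor eIF2 and raises ATF4, a transcription factor that induces genes of amino acid supply, redox balance and feedback control.

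The 6 libraries compared had between 45165780 and 61327487 counted reads. Levels are given in CPM, a gene's read count scaled by edgeR's TMM method to a common library size, with no correction for gene length. Fold changes are on the log2 scale with their standard error (SE), and a gene was called where edgeR's adjusted p was under 0.05 over all genes tested. All 8 macrophage markers were detected in the 6 libraries, with a summed level of 4596 to 5219 CPM with cGAMP alone and 4058 to 5088 CPM with both. The defining T cell genes Cd3d, Cd3e, Cd3g and Cd8a had no read in any of the 6 libraries, nor did the 3 NK cell, the 4 neutrophil and the 4 epithelial markers. The remaining T cell signal was almost all Lck, a kinase gene, and the list summed to 15.7 to 19.8 CPM with cGAMP and 20.8 to 25.4 CPM with both. Of the dendritic cell markers, Zbtb46 had 0.753 to 1.79 CPM and Xcr1 0.211 to 0.562 CPM over the 6 libraries. The B cell list summed to 0.112 CPM at most and the fibroblast list to 0.0438 CPM at most. Genes given by fold change alone include those outside the rule stated with the methods, which were chosen after their values were seen. In bulk RNA, fewer cells expressing a gene and less RNA per cell cannot be told apart.

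With 20 uM SB24011 on cGAMP most listed genes of the integrated stress response (15 of 16), of amino acid and one-carbon enzymes (14 of 17) and of the list of clock genes and Kruppel-like factors (17 of 22) rose. Most listed genes of DNA replication (36 of 45), mitosis (30 of 40), cholesterol synthesis and uptake (16 of 24) and heat shock proteins (14 of 23) fell. Over all genes edgeR called 6201, or 42.3% of those tested. Of these 3180 rose (21.7%) and 3021 fell (20.6%), with 674 rising and 263 falling at least 2-fold. In 7255 genes (49.5%) every library with SB24011 lay above, or every one below, the 3 with cGAMP alone, and the median log2 fold change over all genes was 0.022. Of 880 tested genes in 35 lists, 461 were called (52.4%), and the lists are described here against these shares of all genes.

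**Figure D1:**
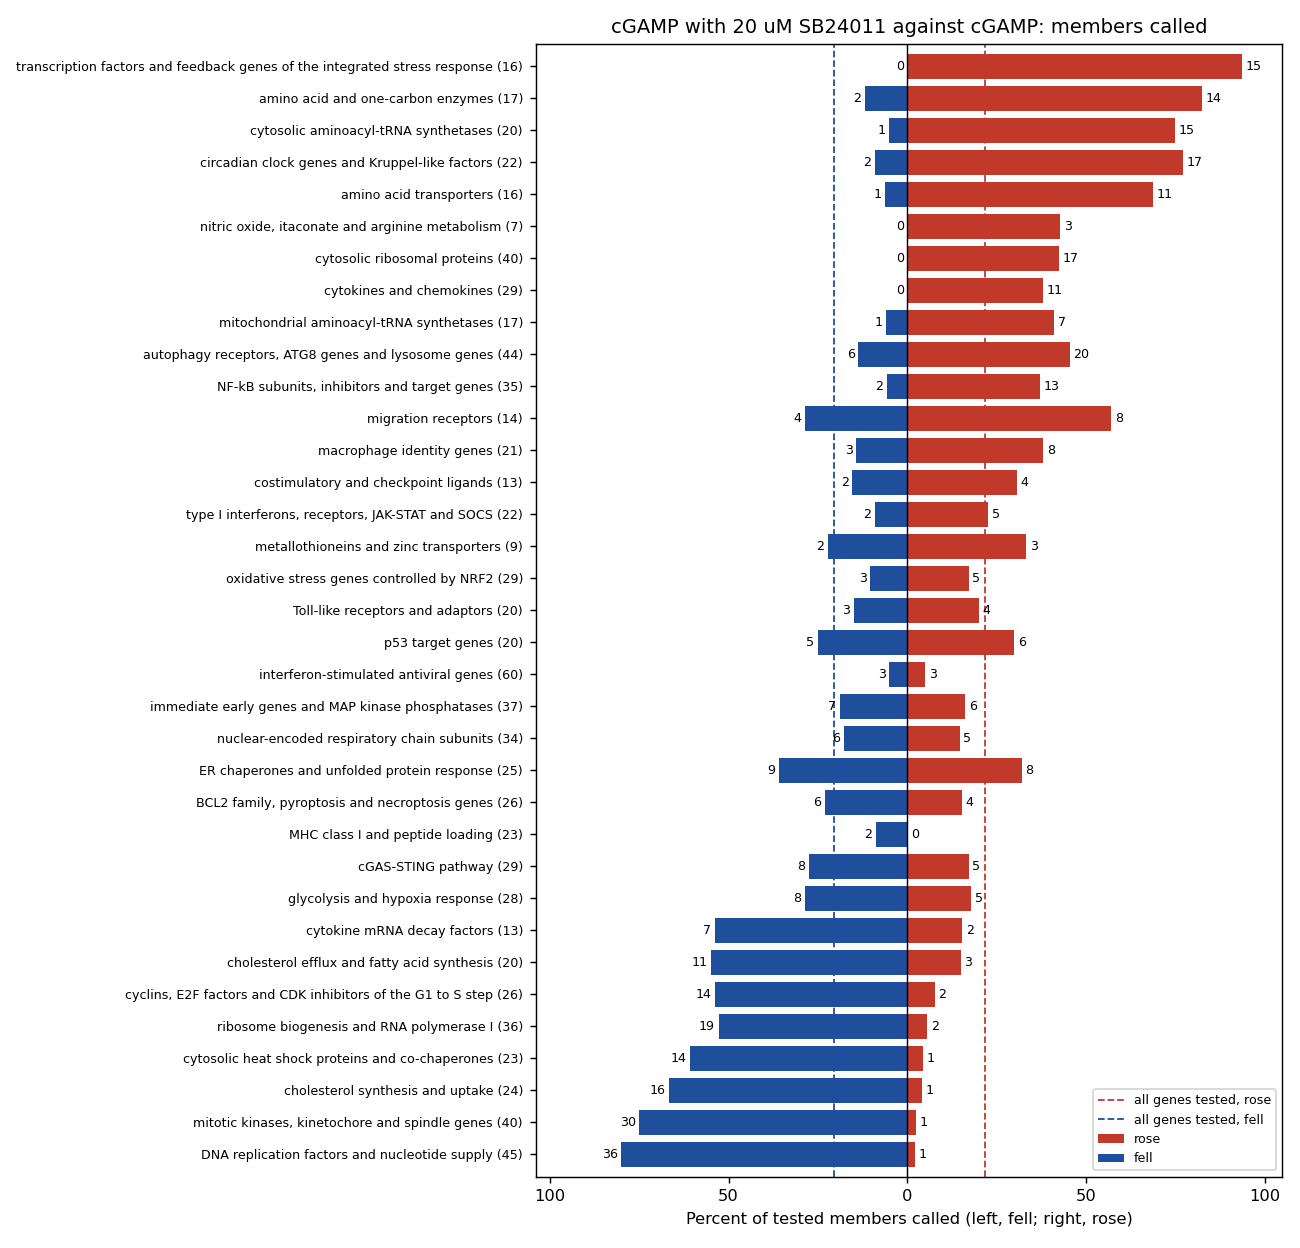
Percent of the tested members of each list that were called for cGAMP with 20 uM SB24011 against cGAMP alone, with risers to the right and fallers to the left, the count beside each bar and the number tested in parentheses. Dashed lines mark the share of all genes tested that rose (21.7%) or fell (20.6%); 15 of 16 stress response factors rose and 36 of 45 DNA replication genes fell.

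The transcription factors and feedback genes of the integrated stress response stood highest. Of 16 tested, 15 rose and none fell, with a median log2 fold change of 1.57, and the remaining member, Jdp2, was higher in each library but not called (0.18 ± 0.080, adjusted p = 0.0742). It was called by library size alone (adjusted p = 0.0332), with the replicate block (0.0418), by limma on the quantile-normalized values (0.0441) and without cGAMP replicate 1 (0.0222). The pseudokinase gene Trib3, which restrains ATF4 signalling, had 15.1, 23.6 and 17.9 CPM with cGAMP alone and 235, 213 and 215 CPM with both compounds. No library of one group came near those of the other, and the log2 fold change was 3.55 ± 0.22 (adjusted p = 1.44e-08). Ddit3, which encodes the transcription factor CHOP, went from 20.8, 23.7 and 18.5 CPM to 128, 108 and 109 CPM (2.45 ± 0.17), although its span overlaps that of Mars, so shared reads may have been divided between them. Atf4 itself went from 387, 439 and 405 CPM to 928, 841 and 821 CPM (1.07 ± 0.085), and its relative Atf5 from 20.2, 27.6 and 26.1 CPM to 149, 109 and 120.4 CPM (2.36 ± 0.14). The largest rise of the list was in Gdf15, a stress cytokine gene, from 0.228, 0.999 and 0.582 CPM to 17.1, 12.4 and 14.4 CPM (4.65 ± 0.32; 5.32 without replicate 2 of every group). Each of these genes was higher in 3 of 3 libraries.

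Promoters of these genes are shown because ATF4 binds, with C/EBP partners, a composite element whose core was searched as TGATGNAAN. The windows run from 250 bases before to 50 after a gene's start and come from RefSeq on GRCm38.p6, printed 5′ to 3′ on the gene's strand with every match, on either strand, in capitals. Trib3 lies at chr2:152344011-152344310 on the minus strand, Pycr1, which encodes an enzyme of proline synthesis, at chr11:120643699-120643998 on the minus strand, and Slc1a4, which encodes a neutral amino acid transporter, at chr11:20332664-20332963 on the minus strand.
Trib3: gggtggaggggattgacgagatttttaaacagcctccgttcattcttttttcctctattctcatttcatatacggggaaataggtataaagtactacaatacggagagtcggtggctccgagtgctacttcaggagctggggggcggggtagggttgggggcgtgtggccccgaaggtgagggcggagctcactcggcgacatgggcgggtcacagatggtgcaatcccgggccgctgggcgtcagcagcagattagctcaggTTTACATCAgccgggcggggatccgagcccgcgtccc
Pycr1: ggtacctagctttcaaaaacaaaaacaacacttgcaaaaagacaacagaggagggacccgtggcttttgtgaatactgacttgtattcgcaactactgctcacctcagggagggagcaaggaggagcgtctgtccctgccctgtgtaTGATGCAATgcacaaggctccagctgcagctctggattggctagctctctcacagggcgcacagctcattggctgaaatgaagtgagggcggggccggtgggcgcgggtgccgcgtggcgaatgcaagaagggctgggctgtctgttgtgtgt
Slc1a4: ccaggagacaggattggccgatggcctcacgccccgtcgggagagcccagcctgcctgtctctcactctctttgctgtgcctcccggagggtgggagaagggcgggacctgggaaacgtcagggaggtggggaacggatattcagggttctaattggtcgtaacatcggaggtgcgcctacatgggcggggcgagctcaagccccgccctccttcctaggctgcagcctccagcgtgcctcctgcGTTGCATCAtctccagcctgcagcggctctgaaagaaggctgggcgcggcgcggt
The match in Trib3 began 13 bases past the start, and those in Pycr1 and Slc1a4 began 103 and 5 bases before it. RefSeq gave a promoter for 15 stress response factors, and 5 of them held the element (33.3%). So did 3 of 15 amino acid and one-carbon enzyme genes (20.0%), 3 of 12 amino acid transporter genes (25.0%) and 5 of 13 cytosolic tRNA synthetase genes (38.5%). Among all 27025 genes with a promoter the share was 4.50%, and among the 10459 tested ones 3.00%. A match describes these letters only and is not a measured binding site.

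Genes for enzymes of amino acid and one-carbon supply rose in 14 of 17 cases and fell in 2 (median 0.88). The largest change was in Cth, which makes cysteine from cystathionine, from 9.09, 12.1 and 12.5 CPM to 104, 113 and 113 CPM (3.30 ± 0.13). Aldh1l2, a mitochondrial folate enzyme, went from 28.4, 27.4 and 33.3 CPM to 163, 151 and 179 CPM (2.47 ± 0.11), and Pycr1 from 5.02, 3.60 and 4.91 CPM to 17.8, 15.96 and 18.6 CPM (1.95 ± 0.19). Their libraries did not overlap between groups. The fallers were the cytosolic folate enzymes Mthfd1 (-0.41 ± 0.084) and Shmt1 (-0.47 ± 0.10), while their mitochondrial counterparts Mthfd1l (0.73 ± 0.084), Mthfd2 (1.03 ± 0.066) and Shmt2 (0.82 ± 0.070) rose.

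Of 16 amino acid transporter genes 11 rose and 1, Slc7a6, fell (-0.74 ± 0.098), with a median of 1.03. Slc3a2, the heavy chain that several transporters need to reach the membrane, had 210.2, 218 and 194 CPM with cGAMP alone and 972, 711 and 701 CPM with both (1.94 ± 0.13). Slc1a4 went from 23.4, 27.4 and 23.5 CPM to 104, 98.4 and 96.4 CPM (2.01 ± 0.14) and the glycine transporter gene Slc6a9 from 25.5, 29.5 and 27.4 CPM to 106, 94.8 and 96.5 CPM (1.85 ± 0.075). Among the light chain partners of Slc3a2, which include the faller Slc7a6, Slc7a5 rose by 1.12 ± 0.091. Slc7a11, which imports cystine, rose by 1.54 ± 0.37, a call that ended in edgeR without replicate 1 of every group (1.25, adjusted p = 0.0729). The glutamine transporter genes Slc1a5 (0.0022 ± 0.060, 95% interval -0.12 to 0.13) and Slc38a2 (-0.039 ± 0.085, -0.22 to 0.14) were not called.

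Genes for cytosolic aminoacyl-tRNA synthetases, which load tRNAs with amino acids, rose in 15 of 20 cases with a median of 0.61, and 1, Farsa, fell (-0.30 ± 0.061). The serine enzyme gene Sars went from 316, 346 and 365 CPM to 783, 764 and 778 CPM (1.18 ± 0.062) and the glycine enzyme gene Gars from 305, 309 and 334 CPM to 691, 656 and 645 CPM (1.07 ± 0.059). The groups did not overlap for either. The 4 that were not called were Dars (-0.035), Hars (0.063), Qars (0.035) and Kars (-0.16, adjusted p = 0.0507), and the last was called under 4 alternatives: RLE size factors (adjusted p = 0.0439), DESeq2 (0.0326), the replicate block (0.0158) and the fit that omits replicate 2 of the combined group (0.0143). Of 17 mitochondrial synthetase genes 7 rose and 1 fell, with a median of 0.19.

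**Figure D2:**
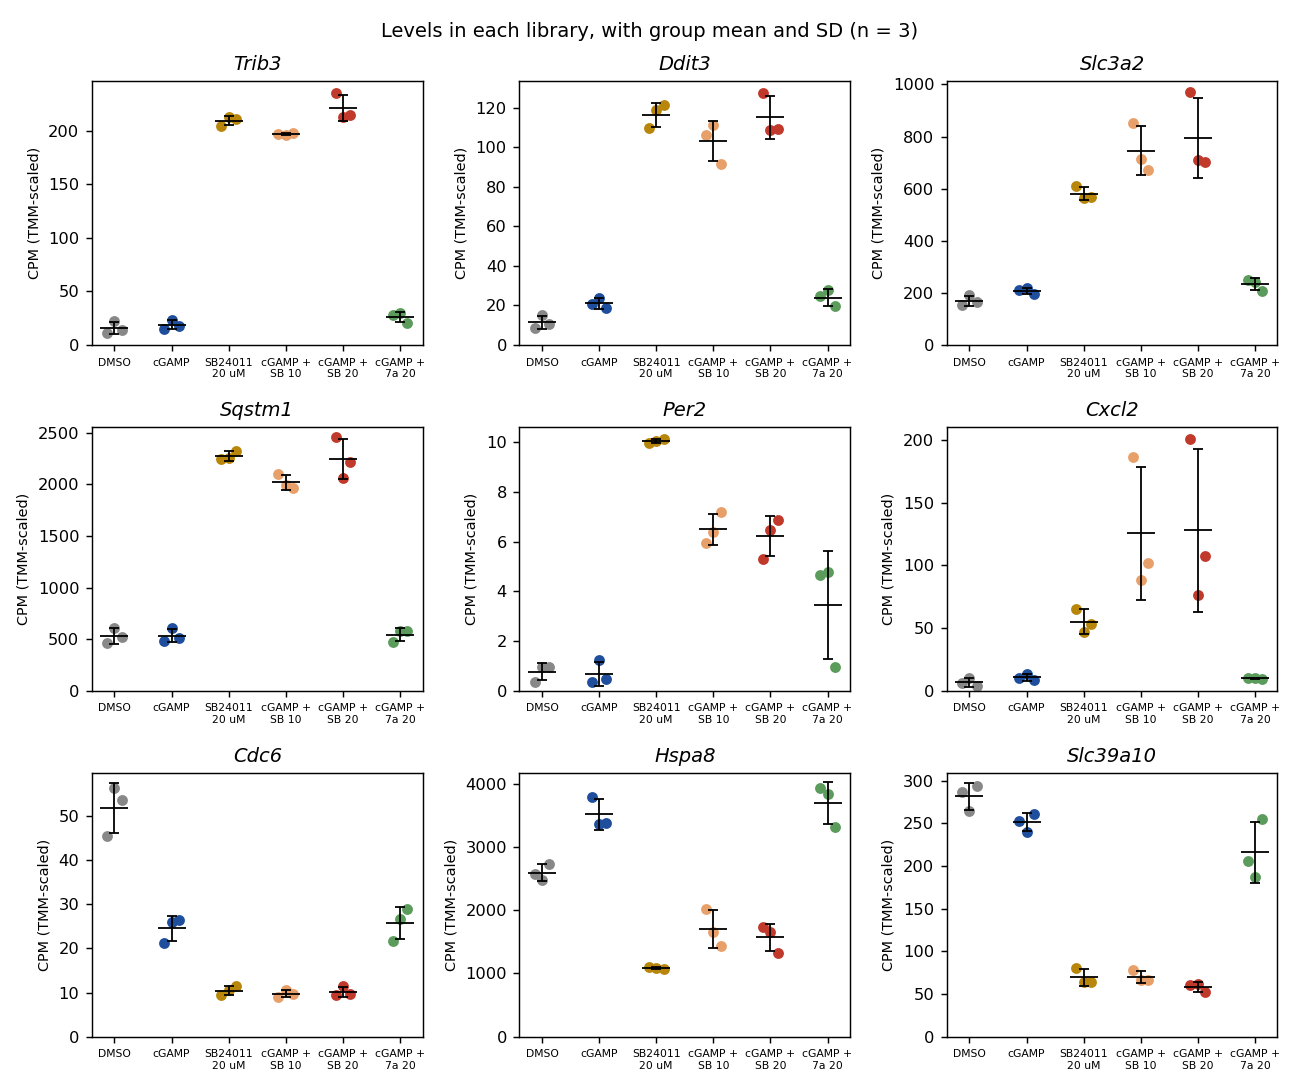
TMM-scaled CPM in every library of the 6 groups for 9 genes, with the group mean and SD (n = 3) in black and SB standing for SB24011 with its dose in uM. Trib3, Ddit3, Slc3a2, Sqstm1, Per2 and Cxcl2 were higher, and Cdc6, Hspa8 and Slc39a10 lower, in the 3 libraries of cGAMP with 20 uM SB24011 than in the 3 of cGAMP alone.

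Autophagy and lysosome genes rose in 20 of 44 cases and fell in 6, with a median of 0.19. Sqstm1, which encodes the autophagy receptor p62, had 483, 605 and 509 CPM with cGAMP and 2457, 2066 and 2216 CPM with both (2.08 ± 0.11, adjusted p = 5.17e-10). The lysosomal cholesterol exporter gene Npc1 went from 134, 129 and 129 CPM to 242, 240.3 and 204 CPM (0.81 ± 0.061). Lysosomal hydrolases moved less, with Ctsb at 0.41 ± 0.089, Hexa at 0.44 ± 0.050 and Gla at 0.57 ± 0.063. Gabarapl1, an ATG8 family gene, fell from 67.2, 62.96 and 66.2 CPM to 38.9, 37.9 and 36.5 CPM (-0.79 ± 0.066).

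Among the listed oxidative stress genes controlled by NRF2 5 rose and 3 fell of 29 (27.6%, against 42.3% of all genes), with a median of 0.13. The largest value in the list was 0.87, and Sqstm1 and Slc7a11, given above with larger rises, are not in it. Hmox1, which encodes heme oxygenase 1, went from 96.9, 144 and 110.2 CPM to 169, 229.97 and 244 CPM (0.87 ± 0.21), a call that ended without replicate 3 of every group (0.73, adjusted p = 0.108 by edgeR). Metal handling genes moved both ways. The zinc importer gene Slc39a10 fell from 252, 240.02 and 261 CPM to 60.98, 61.9 and 52.04 CPM (-2.11 ± 0.12), with no overlap. The zinc exporter gene Slc30a1 was at 53.5 and 121 CPM (1.17 ± 0.26) and the metallothionein gene Mt2 at 42.1 ± 22.5 and 177 ± 41.9 (SD, n = 3; 2.07 ± 0.46). Those calls ended without replicate 1 (adjusted p = 0.0661) and without replicate 3 (0.0517) of every group. Of the 9 genes in the metallothionein list 3 rose and 2 fell, with a median of -0.028.

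Circadian clock genes and Kruppel-like factors, which act in hormone and rhythm responses, rose in 17 of 22 cases and fell in 2, with a median of 0.81. Per2, a repressor of the clock, had 0.351, 1.23 and 0.474 CPM with cGAMP alone and 5.32, 6.48 and 6.88 CPM with both (3.22 ± 0.53, adjusted p = 1.99e-04; 3.92 without cGAMP replicate 2). Its partner Cry2 went from 7.60, 11.3 and 7.69 CPM to 30.1, 27.7 and 27.8 CPM (1.69 ± 0.27). Tsc22d3, which encodes the glucocorticoid-induced leucine zipper, rose from 5.06, 7.13 and 8.53 CPM to 29.8, 35.2 and 43.9 CPM (2.40 ± 0.22), and the output factor gene Dbp by 1.81 ± 0.31. The fallers were Clock (-0.40 ± 0.062) and Klf10 (-0.38 ± 0.095), and Per1 (-0.026 ± 0.096), Per3 (0.35 ± 0.30) and Nr1d1 (-0.15 ± 0.18) were not called. Klf4, listed with the immediate early genes, went from 3.37, 4.41 and 3.92 CPM to 34.9, 34.4 and 34.6 CPM (3.16 ± 0.17), while Arc of the same list fell from 25.6, 22.2 and 25.3 CPM to 7.16, 7.11 and 4.29 CPM (-1.99 ± 0.24). Of the 37 genes in that list 6 rose and 7 fell (35.1% called, against 42.3% of all genes).

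Several of the largest rises lay outside the stress lists. Car6, a secreted carbonic anhydrase, had 0, 0.186 and 0 CPM with cGAMP alone and 3.31, 4.74 and 3.81 CPM with both. With reads in 1 cGAMP library its fitted log2 fold change is not a stable size: it was 6.10 ± 0.57 with all libraries, 5.42 without cGAMP replicate 1 and 10.8 without cGAMP replicate 2. Extl1, a glycosyltransferase gene of heparan sulfate synthesis, went from 0.176, 0.256 and 0.237 CPM to 7.16, 7.98 and 6.83 CPM (5.04 ± 0.31), and the aquaporin gene Aqp9 from 0.421, 0.906 and 0.560 CPM to 13.7, 13.5 and 12.7 CPM (4.43 ± 0.30). All were near or under 1 CPM in the cGAMP libraries. Soat2, which esterifies cholesterol, rose from 1.02, 1.21 and 1.10 CPM to 16.8, 12.4 and 14.4 CPM (3.71 ± 0.18). Large rises were also seen for the alcohol dehydrogenase gene Adh7 (4.34 ± 0.40), the elastic fibre gene Fbln5 (4.15 ± 0.81) and the respiratory subunit gene Cox6a2 (3.96 ± 0.77). Cox6a2 had a wide spread with cGAMP alone, at 0.246, 2.21 and 0.280 CPM, and its value was 5.68 without replicate 2 of that group. Fbln5 was at 3.48 without cGAMP replicate 1. Angptl6 rose by 3.81 ± 0.20, but it overlaps Shfl, which has more reads.

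Of 29 cytokine and chemokine genes 11 rose, against 21.7% of all genes, and none fell (median 0.46). Cxcl2, a neutrophil chemokine, went from 10.1, 13.6 and 8.55 CPM to 201, 76.2 and 107 CPM (3.58 ± 0.42). Replicate 1 of the combined group was the highest, as it was for Il6 (14.6, 7.82 and 5.46 CPM with both against 0.456, 0.279 and 0.259 CPM). Il1b, which encodes interleukin 1 beta, had 0.246, 0.302 and 0.259 CPM with cGAMP and 8.50, 1.16 and 1.59 CPM with both (3.79 ± 1.14). Its call ended without that replicate 1 (2.36, adjusted p = 0.106) and without cGAMP replicate 1 (3.73, adjusted p = 0.0523). Il1a, which encodes interleukin 1 alpha, was not read in any cGAMP library, so its rise is a lower bound: at least 49.9-fold higher with both, where the cGAMP group is set to 3 counts in all. Its fitted value also fell without replicate 1 of the combined group, from 8.79 to 6.98. Lif rose by 2.80 ± 0.44 (2.20 without replicate 1 of the combined group), Osm by 1.605 ± 0.23 and Csf1 by 1.15 ± 0.23, all of them genes of growth factors or cytokines. Several chemokines that cGAMP signalling is known to induce were not called. Among them were Cxcl10 at 1221, 974 and 1183 CPM and 1405, 1146 and 1029 CPM (0.084 ± 0.31, 95% interval -0.58 to 0.74) and Ccl3 (0.045 ± 0.22, -0.42 to 0.51). Ccl5 was not called in the main fit (0.96 ± 0.42, 0.046 to 1.87). edgeR called it with the replicate block (0.88, adjusted p = 0.0177) and without replicate 3 of the combined group (1.21, adjusted p = 0.0459).

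NF-kB subunits, inhibitors and targets rose in 13 of 35 cases and fell in 2 (median 0.28). The share called was 42.9%, near the 42.3% of all genes. The count of risers was 8 without replicate 1 of the combined group. Ptgs2, which encodes cyclooxygenase 2, went from 33.7, 38.1 and 27.1 CPM to 141, 90.1 and 69.4 CPM (1.603 ± 0.36), and Nfkbiz, an atypical inhibitor that is needed for Il6 expression, from 23.5, 21.1 and 24.3 CPM to 140.1, 74.7 and 72.96 CPM (2.06 ± 0.26). Bcl2a1a (1.56 ± 0.20) and Bcl2a1b (1.81 ± 0.18) are near-identical copies, so reads may be divided between them. Nos2, the inducible nitric oxide synthase gene, rose from 65.1, 65.98 and 70.1 CPM to 252, 147 and 118 CPM (1.36 ± 0.29). Of 13 genes for factors that destroy cytokine mRNA 7 fell and 2 rose. Zc3h12a, which encodes the nuclease Regnase-1, rose from 16.2, 12.5 and 13.2 CPM to 40.7, 22.4 and 24.03 CPM (1.05 ± 0.23), while the Roquin paralog gene Rc3h2 (-0.50 ± 0.10) and the deadenylase subunit gene Pan3 (-0.49 ± 0.066) fell.

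Interferon-stimulated genes moved in few cases, with 3 of 60 up and 3 down, or 10.0% against 42.3% of all genes, and a median of 0.065. Among the risers were Oas1g (0.41 ± 0.087) and Xaf1 (0.64 ± 0.11), and the fallers were Eif2ak2 (-0.62 ± 0.11), Oas2 (-0.45 ± 0.14) and Phf11d (-0.44 ± 0.16). Eif2ak2 encodes PKR, an eIF2 kinase activated by double-stranded RNA, and had 707, 634 and 707 CPM with cGAMP and 473, 434 and 427 CPM with both. The calls of Oas2 and Phf11d each ended without replicate 2 of every group (adjusted p = 0.0684 and 0.132). Of 17 alternatives, 5 ended the call of Oas2 and 7 that of Phf11d. In the combined group, omitting replicate 1 raised the number that fell to 6 and omitting replicate 2 or 3 left 1, as did omitting cGAMP replicate 1. Isg15 had 549.6, 439 and 480.5 CPM and 607, 449.6 and 424 CPM (0.012 ± 0.20, 95% interval -0.42 to 0.44), and a 2-fold change lies outside that interval. Ifit1 had 1041, 955 and 1159.8 CPM and 1343, 1226 and 1243 CPM (0.27 ± 0.29, interval -0.34 to 0.89). Its groups did not overlap, yet it was not called with all libraries. With only the compared groups in the fit it was called (0.27, adjusted p = 0.04), and 7 genes of the list rose. Ifnb1, which encodes interferon beta, had 2.35, 2.07 and 1.83 CPM with cGAMP and 5.10, 3.76 and 3.36 CPM with both (0.96 ± 0.31, adjusted p = 0.0181). That call ended without replicate 1 of the combined group (0.77, adjusted p = 0.082) or cGAMP replicate 3 (0.88, adjusted p = 0.0686). MHC class I and peptide loading genes had 2 called of 23, with Calr at -0.45 ± 0.13 and Erap1 at -0.23 ± 0.081. Neither call held when replicate 3 was left out of every group (adjusted p = 0.189 and 0.213). Of 17 alternatives, 3 ended the call of Calr and 7 that of Erap1.

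**Figure D3:**
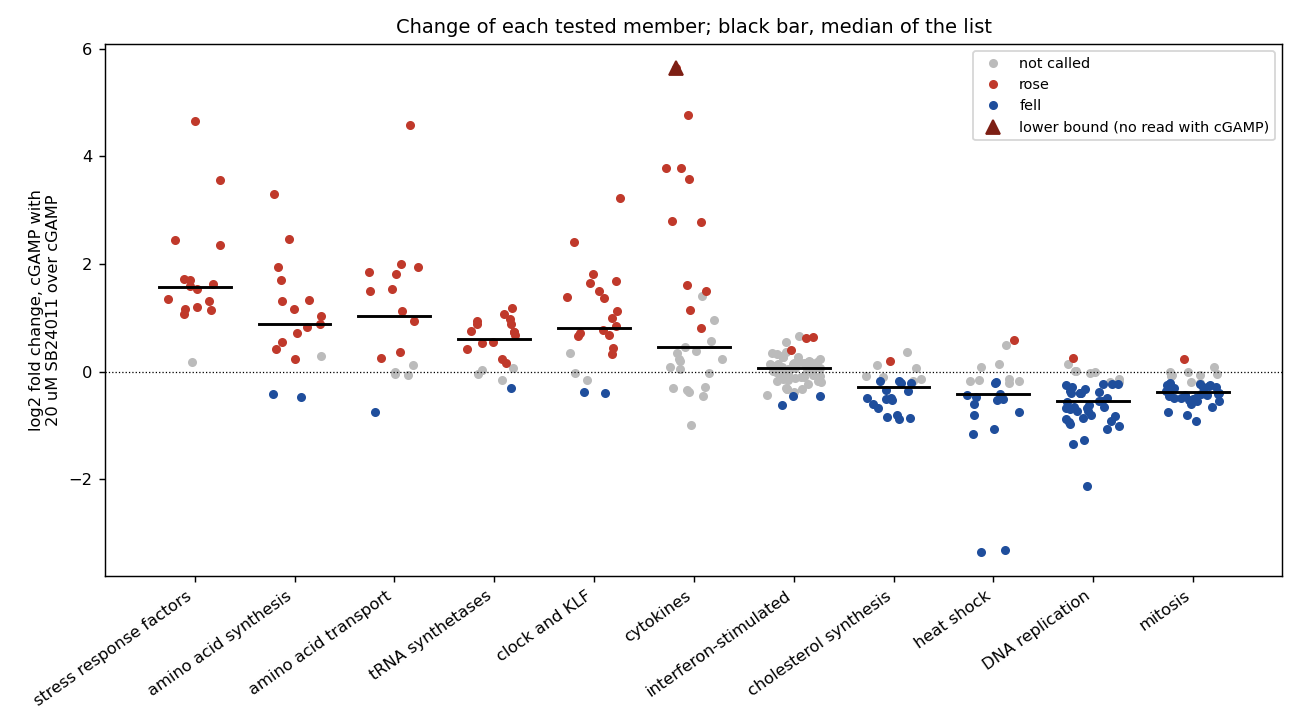
Log2 fold change of each tested member of 11 lists for cGAMP with 20 uM SB24011 over cGAMP alone, coloured by call, with the list median as a black bar (0.065 for interferon-stimulated genes and 1.57 for stress response factors). The triangle marks Il1a, which had no read with cGAMP alone, at its lower bound.

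Of 29 genes that act with cGAS and STING 5 rose and 8 fell, with a median of -0.0062. The share called was 44.8%, near the 42.3% of all genes tested. The sensor gene Cgas fell from 162, 128 and 159 CPM to 82.5, 77.8 and 94.03 CPM (-0.82 ± 0.13) and Tmem173, which encodes STING, from 56.6, 40.1 and 42.9 CPM to 32.9, 25.5 and 23.9 CPM (-0.77 ± 0.15). Neither overlapped between groups. Ttll4, a tubulin glutamylase gene whose product has been linked to cGAS, fell from 69.7, 59.4 and 68.04 CPM to 38.2, 34.6 and 35.5 CPM (-0.86 ± 0.081). Tbk1, the kinase gene of the pathway, fell (-0.37 ± 0.10), but not without replicate 3 of every group (-0.31, adjusted p = 0.126). Its relative Ikbke rose from 22.2, 19.1 and 15.6 CPM to 50.5, 26.9 and 31.7 CPM (0.94 ± 0.28), a call that ended without replicate 1 of the combined group (0.63, adjusted p = 0.0903). Irf3 stood at 36.96 and 37.2 CPM (0.011 ± 0.085). In the JAK-STAT list 5 of 22 rose and 2 fell (31.8% called). The receptor gene Ifnar2 rose from 51.8, 47.5 and 45.9 CPM to 81.3, 78.4 and 76.9 CPM (0.70 ± 0.066) and the feedback gene Socs3 from 3.72, 3.65 and 3.71 CPM to 17.1, 10.1 and 8.69 CPM (1.69 ± 0.29). Trim29 had 5 reads in cGAMP replicate 2 and 0 in every other library of the study, so it was not among the genes tested.

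Surface receptors showed changes in both directions. Of 14 migration receptor genes 8 rose and 4 fell (85.7% called, against 42.3% of all genes). S1pr1, the receptor that guides cells towards sphingosine 1-phosphate, went from 0.246, 0.395 and 0.237 CPM to 1.93, 2.60 and 4.75 CPM (3.43 ± 0.47), while Cx3cr1, the fractalkine receptor, fell from 22.6, 20.9 and 21.03 CPM to 5.89, 5.79 and 6.10 CPM (-1.86 ± 0.23). Neither overlapped between groups. The chemokine receptor gene Ccr2 rose by 1.31 ± 0.21 and Ccr1 fell (-1.12 ± 0.22). Among costimulatory ligands 4 of 13 rose and 2 fell (46.2% called, near the share of all genes). Cd274, which encodes the checkpoint ligand PD-L1, rose from 38.6, 38.6 and 39.9 CPM to 107, 99.6 and 95.4 CPM (1.37 ± 0.14), and Cd80 fell from 14.3, 15.7 and 12.3 CPM to 8.65, 6.77 and 6.51 CPM (-0.95 ± 0.15). In the Toll-like receptor list 4 of 20 rose and 3 fell (35% called, below the share of all genes). Ticam2, the TRAM adaptor gene, went from 11.9, 12.5 and 12.6 CPM to 49.3, 46.8 and 52.4 CPM (2.00 ± 0.083), Tlr4 rose by 0.70 ± 0.095, and its co-receptor gene Cd14 fell from 644, 801 and 669 CPM to 419, 432 and 388 CPM (-0.77 ± 0.12).

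DNA replication genes fell in 36 of 45 cases, and 1, Pold1, rose (0.25 ± 0.064), with a median of -0.55. Cdc6, which loads the replicative helicase at origins, had 21.3, 26.02 and 26.4 CPM with cGAMP alone and 9.55, 11.5 and 9.56 CPM with both (-1.27 ± 0.12). Rrm2, a subunit of ribonucleotide reductase, fell from 105.2, 126 and 132 CPM to 36.4, 54.7 and 51.7 CPM (-1.34 ± 0.16), and Ung, which removes uracil from DNA, from 8.74, 12.3 and 13.03 CPM to 1.45, 2.90 and 3.41 CPM (-2.12 ± 0.29). No library of the combined group reached the cGAMP range in these genes. All 6 genes of the MCM helicase fell, from -0.38 in Mcm2 to -1.002 in Mcm4. The calls of Pold1 and Mcm2 ended without replicate 2 of every group (adjusted p = 0.0546 and 0.0737).

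In the list of the G1 to S step 14 of 26 fell and 2 rose. Ccne2 was at 14.3, 18.96 and 18.8 CPM with cGAMP and 3.42, 4.38 and 4.05 CPM with both, in a span shared with Ints8. E2f7, a repressor of the E2F family, went from 8.53, 8.06 and 10.6 CPM to 2.41, 2.67 and 2.79 CPM (-1.79 ± 0.12), and among the activators E2f1 (-0.93 ± 0.13) and E2f2 (-1.12 ± 0.093) fell. The risers were Myc (4.76, 3.09 and 2.99 CPM to 19.6, 10.4 and 12.6 CPM; 1.96 ± 0.29) and the cyclin gene Ccnd2 (4.60, 6.02 and 4.16 CPM to 16.4, 20.1 and 11.6 CPM; 1.70 ± 0.29), while Ccnd1 (-0.83 ± 0.13) and Ccnd3 (-0.96 ± 0.086) fell. The kinase inhibitor gene Cdkn1a was not called (509.8 ± 55.3 and 568 ± 85.7 CPM, SD, n = 3). Mitotic genes fell in 30 of 40 cases with a median of -0.37, among them Cdca5, which protects sister chromatid cohesion (-0.92 ± 0.11), Mybl2 (-0.81 ± 0.14) and the kinase gene Aurkb (-0.74 ± 0.11). The 1 riser was the kinetochore gene Ndc80 (0.24 ± 0.091, adjusted p = 0.0439), whose groups overlapped. Its call ended in 10 of 17 alternatives, among them DESeq2 (adjusted p = 0.0578) and the fit without replicate 2 of every group (0.16, adjusted p = 0.327).

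Promoters of Cdc6 and E2f7 are shown because E2F factors control genes of the G1 to S step through an element searched as TTTNNCGC on both strands, again with matches in capitals. Cdc6 lies at chr11:98907901-98908200 and E2f7 at chr10:110745189-110745488, both on the plus strand of GRCm38.p6.
Cdc6: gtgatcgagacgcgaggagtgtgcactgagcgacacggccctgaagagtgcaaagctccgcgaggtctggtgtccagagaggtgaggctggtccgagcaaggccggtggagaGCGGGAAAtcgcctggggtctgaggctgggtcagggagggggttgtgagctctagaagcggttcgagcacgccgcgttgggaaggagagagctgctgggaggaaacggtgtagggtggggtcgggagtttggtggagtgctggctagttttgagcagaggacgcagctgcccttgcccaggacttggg
E2f7: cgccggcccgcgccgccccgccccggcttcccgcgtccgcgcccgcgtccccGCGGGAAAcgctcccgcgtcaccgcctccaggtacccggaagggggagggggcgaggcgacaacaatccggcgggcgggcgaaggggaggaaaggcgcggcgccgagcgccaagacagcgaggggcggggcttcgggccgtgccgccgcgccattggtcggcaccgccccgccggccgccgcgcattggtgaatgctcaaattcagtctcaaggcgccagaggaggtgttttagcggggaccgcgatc
The match began 138 bases before the start in Cdc6 and 198 before it in E2f7. Among 35 DNA replication genes with a RefSeq promoter the element was held by 15 (42.9%), and among 19 genes of the G1 to S step by 8 (42.1%). The share was 5.93% of all 27025 genes, 9.98% of those tested, 12.5% of those that fell and 10.2% of those that rose. For the other elements, GAANNTTC was in 10 of 18 heat shock promoters (55.6%, all genes 9.04%), TGACNNNGC in 10 of 23 NRF2 list promoters (43.5%, genes tested 16.8%) and GAAANNGAA in 30 of 47 interferon-stimulated promoters (63.8%, all genes 9.76%). The last list held its element most often and had the second lowest share of genes called.

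Cytosolic heat shock proteins and co-chaperones fell in 14 of 23 cases, and 1, the ubiquitin gene Ubb, rose (0.58 ± 0.083), with a median of -0.41. Hspa1a had 20.2, 10.99 and 13.5 CPM with cGAMP and 2.06, 1.30 and 1.09 CPM with both (-3.34 ± 0.33), and Hspa1b 62.2, 31.2 and 41.9 CPM and 6.11, 4.06 and 3.49 CPM (-3.32 ± 0.36). These are near-identical copies, so each value is uncertain. The constitutive chaperone gene Hspa8 was at 3796, 3369 and 3377 CPM and 1728, 1654 and 1326 CPM, and the factor gene Hsf1, which controls the family, was not called (0.089 ± 0.052). Chaperones of the endoplasmic reticulum and genes of the unfolded protein response split, with 8 of 25 up, 9 down and a median of -0.17. The sensor gene Ern1 rose from 12.01, 11.1 and 11.9 CPM to 28.4, 27.9 and 29.7 CPM (1.30 ± 0.078), Ero1l by 0.80 ± 0.075 and Dnajb9 by 0.78 ± 0.12. Among the fallers, besides Calr, was Edem1 (-0.29 ± 0.077), which acts in disposal of misfolded glycoproteins and whose call ended without replicate 1 of every group (-0.21, adjusted p = 0.0824).

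Cholesterol synthesis and uptake genes fell in 16 of 24 cases and 1, the mevalonate kinase gene Mvk, rose (0.20 ± 0.062), with a median of -0.28. The call of Mvk ended in 5 of 17 alternatives, among them the fit without replicate 2 of every group (0.12, adjusted p = 0.24). The sterol carrier gene Stard4 went from 95.6, 75.6 and 85.5 CPM to 44.4, 45.9 and 48.6 CPM (-0.89 ± 0.089) and Hmgcs1, an early enzyme of the pathway, from 244, 235 and 239 CPM to 128, 137 and 135 CPM (-0.84 ± 0.062). Genes of cholesterol efflux and fatty acid synthesis fell in 11 of 20 cases and rose in 3. Abca1, the transporter that loads cholesterol onto lipoproteins, fell from 1.28, 0.953 and 0.905 CPM to 0.438, 0.137 and 0.161 CPM (-2.11 ± 0.46; -2.79 without replicate 1 of the combined group) and Apoe from 5.02, 5.00 and 4.11 CPM to 2.41, 2.21 and 1.72 CPM (-1.16 ± 0.23). None of these groups overlapped. Elovl6, a fatty acid elongase, fell from 56.5, 64.8 and 67.1 CPM to 20.3, 29.9 and 32.7 CPM (-1.18 ± 0.17), and Plin2, which coats lipid droplets, rose from 119.6, 142 and 138 CPM to 294, 314 and 294 CPM (1.18 ± 0.092). Ribosome biogenesis genes fell in 19 of 36 cases and rose in 2, with the polymerase subunit gene Polr1b at -0.92 ± 0.095. Their median was -0.24. Cytosolic ribosomal protein genes rose in 17 of 40 cases with none down, and their median was 0.11. Of 28 glycolysis and hypoxia genes 5 rose and 8 fell (46.4% called, against 42.3% of all genes). Vegfa, the endothelial growth factor gene, rose from 34.3, 29.02 and 29.7 CPM to 60.7, 52.3 and 56.99 CPM (0.87 ± 0.10). Pgam1, a glycolytic mutase, fell from 980.2, 1012 and 1032 CPM to 569, 681 and 687 CPM (-0.64 ± 0.075). Nuclear genes of oxidative phosphorylation had 5 up and 6 down of 34 (32.4% called), and the cytochrome c gene Cycs stood at -0.34 ± 0.062.

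Falls outside these groups were also among the largest. Sema7a, a semaphorin that acts on integrins, had 2.86, 4.41 and 1.36 CPM with cGAMP and 0.482, 0.456 and 0.337 CPM with both (-2.76 ± 0.60). The kelch and BTB domain gene Kbtbd11 went from 221, 187 and 195 CPM to 39.3, 46.7 and 52.5 CPM (-2.12 ± 0.15) and the transcriptional repressor gene Tgif2 from 11.3, 8.25 and 11.2 CPM to 1.95, 2.23 and 2.79 CPM (-2.13 ± 0.19). All 3 were lower in each library of the combined group than in any cGAMP library. Ocstamp, a gene of osteoclast fusion, had 12.7, 11.6 and 4.80 CPM and 3.79, 3.03 and 1.35 CPM (-1.85 ± 0.54), and its call ended without replicate 3 of the combined group (-1.51, adjusted p = 0.0572). Of 26 cell death genes 4 rose and 6 fell (38.5% called, against 42.3% of all genes). The survival gene Bcl2 rose from 4.39, 5.97 and 6.03 CPM to 11.5, 14.5 and 15.5 CPM (1.35 ± 0.16), the opposing gene Bbc3, which encodes PUMA, from 40.1, 31.3 and 36.6 CPM to 86.1, 61.1 and 72.4 CPM (1.02 ± 0.13), and the pore-forming gasdermin gene Gsdme by 1.24 ± 0.27. Among the fallers were Bad (-0.45 ± 0.075), which promotes apoptosis, and the related gasdermin gene Gsdmd (-0.37 ± 0.11), whose call ended without replicate 2 of every group (-0.33, adjusted p = 0.165). Among p53 targets 6 of 20 rose and 5 fell, and the growth arrest gene Gadd45a went from 0.702, 0.720 and 0.452 CPM to 3.28, 3.83 and 4.93 CPM (2.68 ± 0.27).

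The dose was examined by setting 20 uM against 10 uM SB24011, both on 20 uM cGAMP. No gene was called by edgeR's quasi-likelihood test (0 of 14650, 0%), and 404 had an unadjusted p under 0.05. DESeq2 also called 0, with 477 at an unadjusted p under 0.05. The 95% interval of the difference lay within 1 log2 unit on either side of 0 in 12096 genes (82.6%), and within 0.5 in 9886 (67.5%). Of the 6201 genes called for 20 uM on cGAMP, 5841 had an interval within 1 log2 unit (94.2%) and 5113 within 0.5 (82.5%). Trib3 had 197, 196 and 198 CPM at 10 uM, and the difference of 20 uM from 10 uM was 0.17 ± 0.19 (interval -0.25 to 0.58). Sqstm1 had 2104, 1994 and 1963 CPM at 10 uM (0.15 ± 0.10, -0.068 to 0.37) and Cdc6 8.96, 10.5 and 9.78 CPM (0.061 ± 0.13, -0.21 to 0.33). Larger differences with wider intervals were seen for Ifnb1 (3.24, 2.74 and 2.49 CPM at 10 uM; 0.53 ± 0.30, -0.11 to 1.16) and Hspa1a (3.54, 1.84 and 1.39 CPM; -0.61 ± 0.34, -1.34 to 0.11), and neither was called. A p that misses the threshold does not show that the doses act alike. Without replicate 2 of every group 1 gene was called.

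The analog comparison set 20 uM SB24011 against 20 uM 7a, both on 20 uM cGAMP, as the 1 pair of compounds at a matched dose. edgeR called 5336 genes (36.4%), with 2886 higher with SB24011 (19.7%) and 2450 lower (16.7%). The SB24011 libraries are those also set against cGAMP alone. All 16 tested stress response factors were higher than with 7a, by a median of 1.36, and 38 of 45 DNA replication genes were lower and none higher, with a median of -0.57. Trib3 had 27.6, 29.8 and 20.9 CPM with 7a, a difference of 3.08 ± 0.21 (adjusted p = 6.06e-08), and Sqstm1 470.4, 582 and 575 CPM (2.05 ± 0.11). Cdc6 had 21.8, 26.7 and 28.98 CPM (-1.34 ± 0.12) and Hspa8 3926, 3845 and 3312 CPM (-1.24 ± 0.11). In each of these the libraries of the 2 compounds did not overlap, as in 6284 of all genes tested (42.9%). Of 60 interferon-stimulated genes 2 were higher and 1 lower with SB24011, and the median difference was -0.0086. Cxcl10 had 1757, 1504 and 1064 CPM with 7a (-0.27 ± 0.31, interval -0.93 to 0.39) and Isg15 555, 521 and 495 CPM (-0.086 ± 0.20, -0.52 to 0.35), and neither was called. Of the 22 clock and Kruppel-like genes 10 were higher with SB24011 than with 7a and 2 lower, with a median difference of 0.59. Per2 had 4.67, 4.77 and 0.963 CPM with 7a, of which 2 lay just below the combined group, and the difference was 0.86 ± 0.45 (adjusted p = 0.159, interval -0.10 to 1.82). Limma on the authors' quantile-normalized values called it (0.33, adjusted p = 0.0332). Tef was at 22.7 CPM with 7a, 27.3 with SB24011 and 9.74 with cGAMP alone (0.27 ± 0.28 against 7a). The number of genes called was 3208 without replicate 3 of every group, and 1607 genes were lower without replicate 2, by edgeR.

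**Figure D4:**
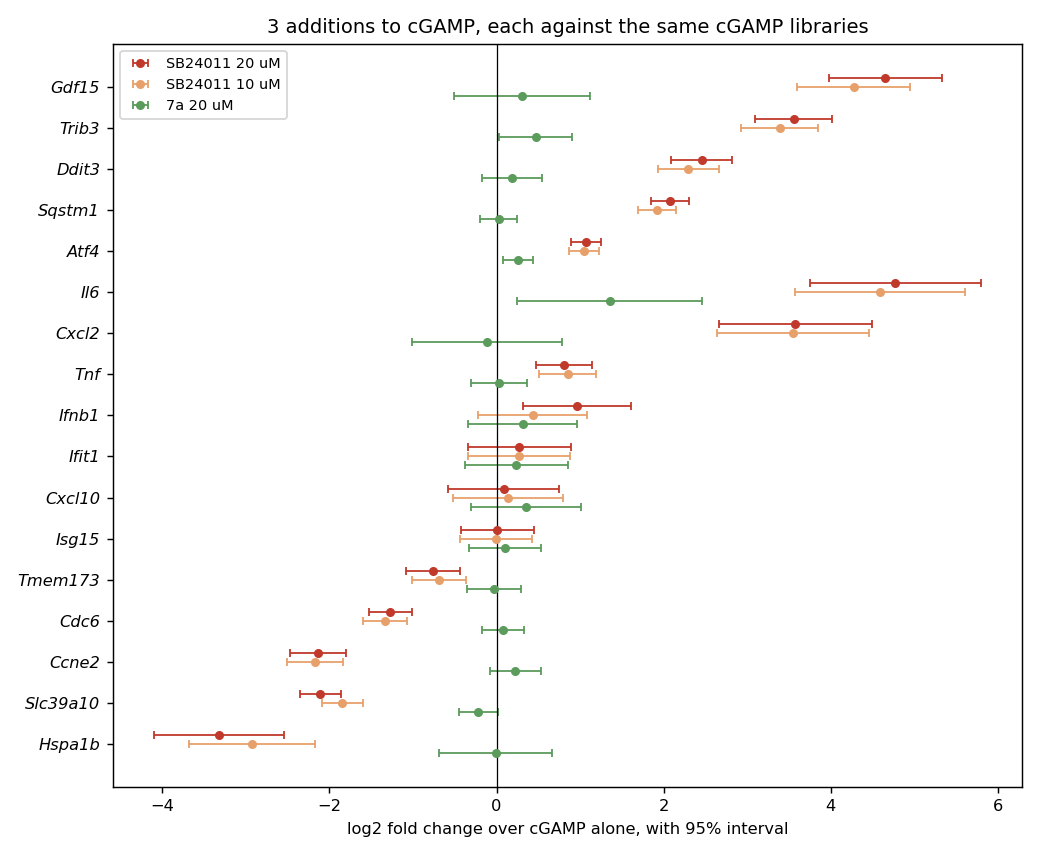
Log2 fold change over the same 3 cGAMP libraries, with 95% intervals from edgeR, for 17 genes after adding 20 uM SB24011, 10 uM SB24011 or 20 uM 7a. In this order the values are 3.55, 3.39 and 0.47 for Trib3, and the intervals of Ifit1, Cxcl10 and Isg15 include 0 for every addition. Per2, which is not plotted, had 3.22, 3.29 and 2.37.

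The change made by 20 uM SB24011 was also compared with and without cGAMP, as a test of the difference itself (the interaction term of the fit). edgeR called 54 genes (0.369%), of which 36 had a more positive and 18 a more negative change in the presence of cGAMP. That split turned with the setting: library size alone gave 10 more positive and 23 more negative, and only the compared groups 8 and 21. The treatments without cGAMP were DMSO and 20 uM SB24011 alone. Of the 45 DNA replication genes 10 were called. Cdc6 fell by 1.27 on the log2 scale with cGAMP and by 2.31 without it, from 45.5, 56.4 and 53.6 CPM in DMSO to 9.34, 10.6 and 11.4 CPM with SB24011 alone. The end levels of the treated groups overlapped, and the difference between changes was 1.04 ± 0.17 (adjusted p = 0.0104). Gch1, which makes the cofactor of nitric oxide synthase, rose from 97.8, 93.6 and 91.1 CPM to 185, 146 and 141 CPM with cGAMP and from 19.99, 26.2 and 19.1 CPM to 87.1, 76.4 and 80.3 CPM without (-1.16 ± 0.17, adjusted p = 0.00469). Both calls ended without replicate 2 of every group (adjusted p = 0.524 for Cdc6 and 0.145 for Gch1) and without replicate 3 (0.166 for both). Trib3 was not called (-0.16 ± 0.28, interval -0.76 to 0.45), nor did Il6 (-1.33 ± 1.54, -4.63 to 1.98) or Tnf (0.21 ± 0.22, -0.26 to 0.69). Leaving out 1 library gave 23 calls without cGAMP replicate 1, 29 without DMSO replicate 3, 31 without replicate 3 of SB24011 alone, and 33 without DMSO replicate 1 or replicate 2 of the combined group. The number called was 4 without replicate 2 of every group and 321 with replicate number as a block.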

How the data were processed

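Polyadenylated RNA of 18 libraries was sequenced after a stranded preparation, per the labels' protocols. The deposited table holds raw read counts per gene, and the submitters' processing notes name StringTie 2.1.3b, HISAT2 2.1.0, Bowtie2 2.3.4.1, Trimmomatic 0.38 and the mm10 build of GRCm38. For the counter, its strand setting and multi-mapping reads nothing is given in the sources used here, so overlapping or near-identical genes are uncertain. Deposited FPKM values by the authors served only to check the scale of the deposited quantile-normalized log2(FPKM + 1) values, which the authors gave for 13908 genes and which were used in 1 alternative.

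Counts were filtered with filterByExpr, scaled by TMM and fitted with edgeR 4.0.16 in R 4.3.3 by its quasi-likelihood test over 6 groups of 3 libraries (12 residual degrees of freedom), with Benjamini-Hochberg adjustment over 14650 genes and two-sided tests. The prior count of fold changes was 0.125. The SE was the fold change divided by the square root of its F, and intervals are 95%. Intervals and the floor of 3 counts cover counting or library error only. DESeq2 1.42.0 and limma 3.58.1 were alternatives, beside other scalings, filters, a replicate block and leaving out libraries. Scripts were tested on simulated data.

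Genes were named by a rule: the 15 largest called rises and 15 largest falls (mean over the compared libraries 1 CPM or more, groups not overlapping), up to 4 called members of each list by size, the 6 largest in each other contrast, and a fixed set of stress, interferon and cell cycle genes. The members and lists were chosen with earlier results of these data known. Other genes were chosen after their values were seen. Results for a few genes are not reported here.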

Additional observations from a re-analysis of the deposited data

Results flagged for a closer look

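The change made by 20 uM SB24011 differed with and without cGAMP in 54 genes by edgeR's interaction test, of which 8 met the rule for named genes. Differences are the log2 fold change with cGAMP minus that without. Of the DNA replication genes, Cdc6 differed by 1.04 (-1.27 with and -2.31 without cGAMP) and Rpa2, a subunit of the single-strand DNA binding complex, by 0.53 (-1.06 and -1.59). The catenin-like gene Ctnnal1 differed by 1.26 (-0.90 and -2.15). Fcgr1, the gene of a high-affinity antibody receptor, differed by -1.38 (0.55 and 1.93), Gch1 by -1.16 (0.74 and 1.90), and Arid5a, an RNA-binding protein gene, by -1.20 (1.58 and 2.78). The interferon-inducible genes Ifi202b and Gvin1 differed by -1.36 (-0.033 and 1.32) and by -1.42 (0.16 and 1.58), and Gvin1 has near-identical copies. Each of these 8 calls ended without replicate 2 of every group, and all but that of Gvin1 also without replicate 3. Processing ended some as well. Arid5a was not called by limma on the quantile-normalized values (-0.24, adjusted p = 0.78). In edgeR Fcgr1 was not called without the low-count filter (adjusted p = 0.0562), nor Rpa2 by library size alone (0.0836). Leaving out single libraries also ended calls of these 3 genes.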

How the results depend on the processing

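The count of genes called for 20 uM SB24011 on cGAMP ranged from 4391 to 7496 over the alternatives, and the share that rose from 47.0% to 56.8%. Each alternative shared 68.6% to 99.8% of the calls, and none of those shared had the opposite direction. Over 216 genes carried through the alternatives, 3504 values kept their side of the threshold, 145 lost the call and 11 gained it. With a call in either fit, 0 values reversed direction. The direction could turn in genes that neither fit called, as for Isg15 (-0.16 to 0.11). An alternative named above for ending a call is not always the only one that ended it. The dose count was 0 to 1 (higher at 20 uM, 0 to 1) with libraries left out. The count against 7a was 3208 to 5011 (higher 1804 to 2699, lower 1404 to 2319) with libraries left out. The count for the difference with and without cGAMP was 33 (10 up, 23 down) by library size alone, 29 (8 up, 21 down) with only the compared groups, 183 (95 up, 88 down) by DESeq2, 20 up and 19 down with RLE size factors, and 4 to 67 (0 to 39 up, 4 to 28 down) with libraries left out. Of interferon-stimulated genes 7 rose with only the compared groups, 6 fell by DESeq2, and 1 to 6 fell with libraries left out. Of cytokine genes 6 rose by limma on the quantile-normalized values, and of NF-kB genes 8 to 15 rose with libraries left out.

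After each gene's group mean was subtracted from its log2 CPM, same-numbered libraries of the compared groups correlated at 0.0502 to 0.215. Others reached 0.0417 at most. By the 0.1 threshold the numbers do not pair the samples, though each library correlated best with its own number. In a principal component analysis of all 18 libraries, replicate 1 of every group lay at 14.4 to 20.4 on axis 3 (4.09% of the variance). The other replicates lay at 3.26 or lower. The main fit has no replicate term, so this shared difference stays in its spread. With the replicate block 7496 genes were called, 321 differed with and without cGAMP (211 up, 110 down), and 7 interferon-stimulated genes rose, 8 fell and 21 NF-kB genes rose. The cause of these differences was not tested. With 3 libraries a group, small changes in genes with few reads were not detectable.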
